A study of Mus musculus with 38 samples.

Results

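Keratin-associated protein (Krtap) genes encode the small matrix proteins of the hair shaft, and their relation to SATB1 was read here from peak lists of mouse cells. The members were all protein-coding genes whose symbol begins with Krtap in the GENCODE vM1 annotation of the mm9 genome, which gave 46 of 22367 protein-coding genes. They lie in 3 clusters and at 1 further locus: 22 on chromosome 11, 19 on chromosome 16, 4 on chromosome 7, and Krtap12-1 alone on chromosome 10. A further 7 genes with Krtap symbols are annotated as pseudogenes and were not members.

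The study mapped where the genome organizer SATB1 and the insulator protein CTCF bind in wild-type (Satb1+/+) C57BL/6 mice, and which sites are base-unpairing regions (BURs). The 11 peak lists comprised 1 BUR map, made in vitro by binding SATB1 to purified DNA, and SATB1 urea ChIP-seq of primary epidermal keratinocytes (called skin here), thymocytes and brain cortex cells, with 2 replicates each. Standard SATB1 ChIP-seq of thymocytes had 2 replicates, and CTCF urea ChIP-seq was represented by 1 list each from thymocytes and skin. In urea ChIP-seq, crosslinked chromatin is purified through urea by ultracentrifugation before immunoprecipitation, and standard ChIP-seq omits that step. The sources give different ages for the same cells. For skin the labels state postnatal day 13 and the protocol day 5, and the study's methods say newborn. For brain the labels state 5 and 6 weeks, the protocol day 13 and the methods adult. Thymocytes are labelled day 13, although the titles of the CTCF list and of standard replicate 1 name 6 weeks. In the brain, SATB1 is expressed in neurons only according to the labels. SATB1 was precipitated with the polyclonal serum 1583D, except in standard replicate 1, where the commercial antibody ab109122 was used. Replicates are numbered as in the labels, and for the thymocyte urea lists the study uses the opposite numbering. A checklist of the study describes its replicates as cells of different animals. The labels tie no list to an animal, and the titles of each pair of SATB1 urea lists share a TKS number. They differ within the pair in PCR cycles for brain, in microlitres for thymocytes and in a time in seconds for skin, so that the spread between replicates may be technical. The files hold peaks without read counts, so the labelled cell types could not be checked by markers. The study describes the total of aligned reads as similar between the urea libraries, and no read total was used here.

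KAPs accumulate inside the cortex and cuticle cells of the growing hair, where they crosslink keratin filaments. Cysteine-rich KAPs form disulfide bonds with hair keratins, and glycine and tyrosine-rich KAPs pack between the filaments. The genes are short, most have 1 exon, and they are expressed late in hair shaft differentiation. BURs are A+T-rich stretches in which mixed A, T and C, without G on the same strand, give DNA a strong tendency to unpair under torsional stress. SATB1 recognizes such DNA in vitro.

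Of the members, 34 belong to cysteine-rich families and 12 to glycine and tyrosine-rich families. The chromosome 11 cluster holds cysteine-rich members only, of families 1, 2, 3, 4, 9, 17, 29 and 31, within the region of the type I keratin genes. The chromosome 16 cluster holds all 12 glycine and tyrosine-rich members, along with 7 cysteine-rich ones. The chromosome 7 cluster holds Krtap5 genes, an ultra-high cysteine family. Current RefSeq symbols matched all 46 members, and 7 members of chromosome 16 now carry other names: Krtap16-2, Krtap16-1, Krtap16-5, Krtap16-4 and Krtap8-2 are Krtap19-1, Krtap19-2, Krtap19-3, Krtap19-4 and Krtap19-5, Krtap16-8 is Krtap6-5, and Krtap16-7 is Krtap21-1. The names of the annotation are used throughout.

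With ends extended by 20 kb, the chromosome 16 cluster spanned 1000 kb (chr16:88590954-89591428), the chromosome 11 cluster 484 kb (chr11:99391446-99875308) and the chromosome 7 cluster 170 kb (chr7:149340437-149510408). The window about Krtap12-1 covered 40.7 kb (chr10:77163331-77204001). These regions also hold other protein-coding genes, some of them under clone names, so that the clusters comprise 33, 58, 10 and 5 protein-coding genes in that order. The members themselves are short, from 304 bp to 9270 bp with a median of 854.5 bp, against a median of 15427 bp over all protein-coding genes.

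The BUR sequences that the results turn on are shown first. They are the BURs that overlap the 5 strongest SATB1 sites with a peak in all 6 urea lists, each named by its nearest member, and the BUR with the highest in vitro fold enrichment of each cluster. Each line gives 300 bases about the BUR summit, 5′ to 3′ on the plus strand of mm9, and the capitals mark the longest stretch that lacks C or lacks G.
Krtap16-2 site, chr16:88870625-88870924: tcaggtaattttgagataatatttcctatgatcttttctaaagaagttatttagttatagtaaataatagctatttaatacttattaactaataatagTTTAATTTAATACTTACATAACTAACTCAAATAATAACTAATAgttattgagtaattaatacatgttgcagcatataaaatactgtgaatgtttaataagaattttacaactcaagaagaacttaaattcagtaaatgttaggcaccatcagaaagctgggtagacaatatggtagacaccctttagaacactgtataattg
Krtap16-7 site, chr16:89364374-89364673: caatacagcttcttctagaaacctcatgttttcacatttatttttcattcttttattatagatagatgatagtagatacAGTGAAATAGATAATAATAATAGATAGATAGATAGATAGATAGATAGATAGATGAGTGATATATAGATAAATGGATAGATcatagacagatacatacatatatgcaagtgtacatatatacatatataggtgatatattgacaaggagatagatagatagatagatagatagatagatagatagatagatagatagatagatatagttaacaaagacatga
Krtap13-1 site, chr16:88709904-88710203: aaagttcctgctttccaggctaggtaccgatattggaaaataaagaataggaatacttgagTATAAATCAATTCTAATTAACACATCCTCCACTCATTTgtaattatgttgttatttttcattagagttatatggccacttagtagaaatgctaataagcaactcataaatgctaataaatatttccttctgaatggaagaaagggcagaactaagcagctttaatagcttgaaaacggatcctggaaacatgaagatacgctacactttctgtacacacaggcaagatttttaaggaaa
Krtap7-1 site, chr16:89538829-89539128: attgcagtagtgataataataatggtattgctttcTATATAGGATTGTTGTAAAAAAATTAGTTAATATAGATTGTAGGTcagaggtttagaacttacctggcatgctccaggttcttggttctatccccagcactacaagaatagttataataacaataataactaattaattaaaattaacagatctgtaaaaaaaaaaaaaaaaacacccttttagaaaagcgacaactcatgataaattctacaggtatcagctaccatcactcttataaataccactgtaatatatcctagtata
Krtap15 site, chr16:88837227-88837526: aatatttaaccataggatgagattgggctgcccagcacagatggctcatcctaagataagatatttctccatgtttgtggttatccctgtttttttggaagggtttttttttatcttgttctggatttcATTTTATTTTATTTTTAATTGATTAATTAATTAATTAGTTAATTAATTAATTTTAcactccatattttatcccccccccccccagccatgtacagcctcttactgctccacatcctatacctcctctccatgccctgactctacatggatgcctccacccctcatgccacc
Strongest BUR of the chromosome 11 cluster, chr11:99657297-99657596: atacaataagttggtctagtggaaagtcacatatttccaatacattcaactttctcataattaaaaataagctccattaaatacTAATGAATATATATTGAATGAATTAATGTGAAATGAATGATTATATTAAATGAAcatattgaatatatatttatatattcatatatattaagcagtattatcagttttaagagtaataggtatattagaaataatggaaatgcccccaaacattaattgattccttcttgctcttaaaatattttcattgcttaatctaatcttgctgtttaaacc
Strongest BUR of the chromosome 16 cluster, chr16:88763656-88763955: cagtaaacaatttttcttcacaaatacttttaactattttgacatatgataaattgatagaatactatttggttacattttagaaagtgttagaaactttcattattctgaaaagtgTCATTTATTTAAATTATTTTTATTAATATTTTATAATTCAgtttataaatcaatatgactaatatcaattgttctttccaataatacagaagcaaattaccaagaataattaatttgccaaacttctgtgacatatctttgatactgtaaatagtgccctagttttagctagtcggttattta
Strongest BUR of the chromosome 7 cluster, chr7:149381380-149381679: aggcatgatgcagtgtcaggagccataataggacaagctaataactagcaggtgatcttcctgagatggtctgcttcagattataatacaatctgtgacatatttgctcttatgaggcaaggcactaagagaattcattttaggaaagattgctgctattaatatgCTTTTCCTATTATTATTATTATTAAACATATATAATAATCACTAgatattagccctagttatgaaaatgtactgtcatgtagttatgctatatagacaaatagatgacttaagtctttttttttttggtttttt
The capitals cover 43 bases without G at the Krtap16-2 site, 80 bases without C at the Krtap16-7 site, 38 bases without G at the Krtap13-1 site, 45 bases without C at the Krtap7-1 site and 55 bases without C at the Krtap15 site. In the strongest BURs they cover 54 bases without C on chromosome 11, 40 bases without G on chromosome 16 and 44 bases without G on chromosome 7. The A+T content of the printed bases ranged from 61.3% at the Krtap15 site to 77% in the strongest chromosome 16 BUR. All 8 lie between genes in the annotation. At the Krtap16-7 site the printed bases, about the summit of a BUR that extends further, end before the SATB1 site begins.

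BURs were plentiful around the members. A BUR lay in the gene body or its 20 kb flanks for 44 of 46 members, against 86.6% of all protein-coding genes. The exceptions were Krtap12-1, whose nearest BUR was 66.4 kb away, and Krtap5-5, at 32.6 kb. Since the members are short, a window of equal width for every gene, 20 kb to either side of the gene start, was also counted: 43 of 46 members had a BUR in it, against 78.7% of all genes. The median distance from a member to the nearest BUR was 0.999 kb on chromosome 16, 3.05 kb on chromosome 11 and 15.1 kb on chromosome 7.

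The 4 regions contained 189 BURs, of which 144 were on chromosome 16, 41 on chromosome 11, 4 on chromosome 7 and 0 on chromosome 10. Per 100 kb, BURs were 1.59 times as dense on chromosome 16 as over the genome, 0.933 times on chromosome 11 and 0.259 times on chromosome 7. The A+T content of the clusters followed the same order, with 61.1% on chromosome 16, 57.8% on chromosome 11 and 53.7% on chromosome 7, against 58.2% genome-wide. BURs of the clusters had medians near those of all BURs: their median A+T content was 70.8% (70.7% for all BURs), their median longest stretch without C or without G was 44 bases (43 for all BURs), and their median fold enrichment in vitro was 6.22 (5.88 for all BURs). On chromosome 7 the median A+T content of the 4 BURs was 59.8%.

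**Figure D1:**
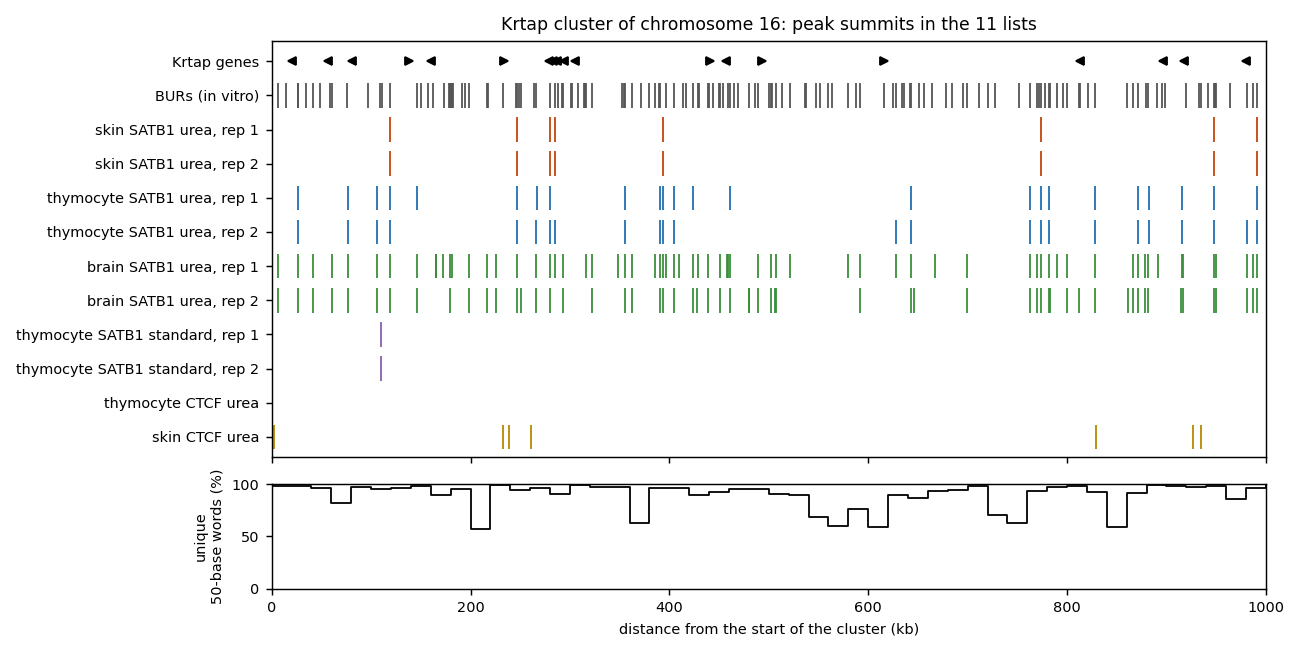
Krtap cluster of chromosome 16, with the distance from the start of the cluster in kb on the horizontal axis. Arrowheads show the members and their strand, each vertical line is a peak summit in the list named at the left, and the lower panel gives the percent of 50-base words that occur once in the genome, per 20 kb. The skin summits line up between replicates at 8 positions, and CTCF of thymocytes has no summit.

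Within the genes themselves, almost nothing was bound. A urea SATB1 peak overlapped the body of 0 of 46 members in both skin, both thymocyte and the brain replicate 1 lists, where between 10.7% and 34.4% of all protein-coding genes had one. In brain replicate 2 the only such member was Krtap16-7, a glycine and tyrosine-rich gene, whose exon was overlapped by a peak of 5.52-fold enrichment that also met a BUR. The promoter window, 250 bp upstream to 50 bp downstream of the start, held a urea SATB1 peak in 1 member, Krtap1-3, also in brain replicate 2 only. Such promoter peaks are rare in general: 0.934% of all protein-coding genes had one in that list, and 0.192% to 1.06% across the urea lists. BURs overlapped the bodies of Krtap3-2, Krtap15 and Krtap16-7 and the promoters of Krtap16-5 and Krtap16-7. Of all protein-coding genes, 46.1% had a BUR in the body and 2.18% in the promoter. The bodies are small targets, and reads that match a sibling gene equally well were not kept. Of the 50-base words of Krtap4-13, 18.6% occur once in the genome, and 35.3% of those of Krtap9-1, while Krtap29-1 and Krtap24-1 are at 100%. None of these bodies had a urea SATB1 peak. The part of size and of unique words in the missing peaks was not tested.

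In the surrounding 20 kb, SATB1 peaks were found at many members, and their number differed by tissue. In skin, 10 of 46 members had a urea SATB1 peak in replicate 1 and 10 in replicate 2, beside 21.5% and 20.8% of all protein-coding genes. In thymocytes the counts were 27 and 28 members, beside 46.1% and 43.9%. In brain they were 39 and 39 members, beside 63.8% and 61.9%. As percentages of the 46 members these are 21.7% in both skin lists, 58.7% and 60.9% in thymocytes and 84.8% in both brain lists. In this window, which is wider for longer genes, the skin lists were at the level of all genes and the others above it.

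In the equal window about the gene start the members' counts did not change, and all genes were lower: 12.3% and 11.9% in skin, 32.8% and 30.6% in thymocytes, and 52.8% and 50.8% in brain. In that window the members stood above all genes in every urea list, skin included. Neighbouring members share windows and peaks, so the 46 are not independent observations. The lists also differ in length, with 11210 and 10846 peaks in skin, 45049 and 38882 in thymocytes and 117963 and 109154 in brain. When each urea list was cut to its 10846 strongest peaks (added once the data had been seen), the members with a peak numbered 9 and 10 in skin, 13 and 10 in thymocytes and 9 and 11 in brain.

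Other gene groups read in the same way give a scale, as counts without a test. Keratin genes, of which there were 54, had a urea SATB1 peak in the body or flanks in 6 and 6 cases in skin and 28 and 26 in brain. For the 50 genes of the epidermal differentiation complex, another tandem family of the skin barrier, the counts were 13 and 12 in skin and 43 and 41 in brain. Of the 1113 olfactory receptor genes, 258 and 264 had a peak in skin and 1038 and 1014 in brain. In a list of 20 regulators and structural genes of the hair follicle, such as Foxn1 and Hoxc13, 2 and 3 genes had a skin peak and 12 and 13 a brain peak.

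**Figure D2:**
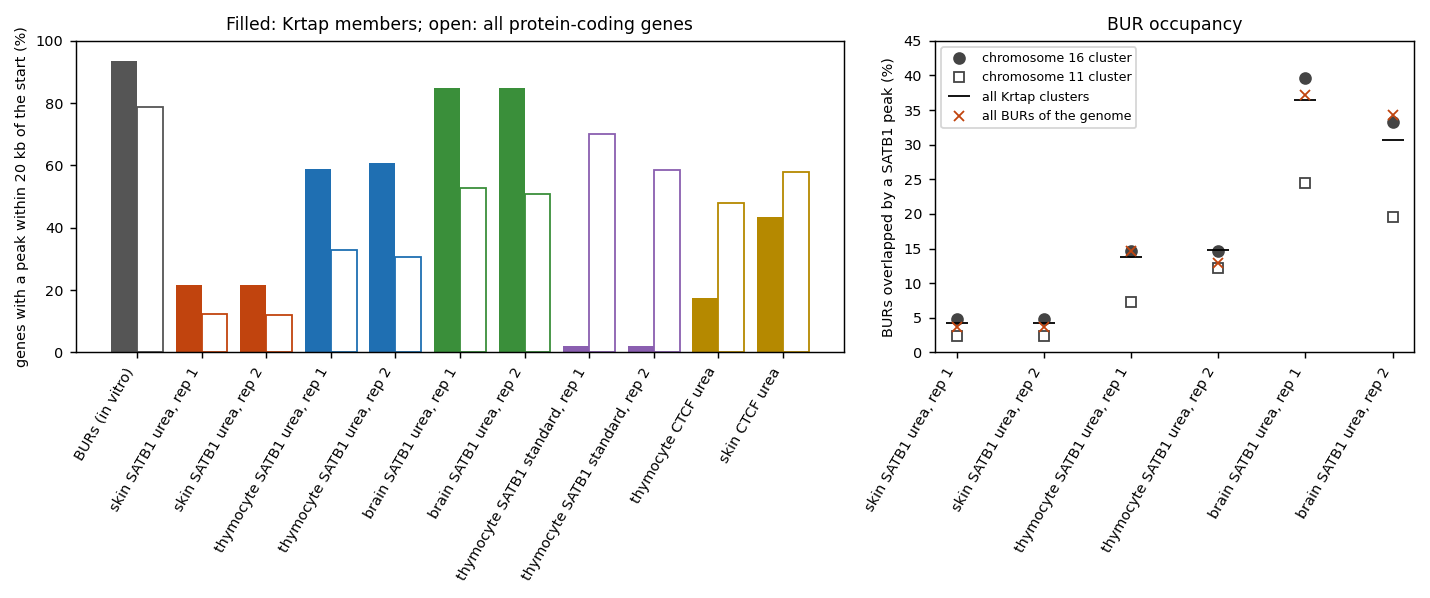
Left, percent of the 46 Krtap members (filled bars) and of all protein-coding genes (open bars) with a peak within 20 kb of the gene start, per list. Right, percent of BURs overlapped by a urea SATB1 peak in the chromosome 16 cluster (circles), the chromosome 11 cluster (squares), all Krtap clusters together (dashes) and the genome (crosses), with each replicate shown on its own. Both brain lists stand at 84.8% of members, and both standard SATB1 lists at 2.17%.

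The comparison of tissues was then made on the BURs of the clusters. A skin SATB1 peak overlapped 8 of 189 BURs in each replicate, or 4.23%, while the share of all BURs was 3.71% and 3.64%. In thymocytes 26 and 28 BURs were overlapped, or 13.8% and 14.8%, with 14.6% and 12.9% genome-wide. In brain 69 and 58 were overlapped, or 36.5% and 30.7%, with 37.2% and 34.2% genome-wide. The percent of cluster BURs bound thus went from 4.23% ± 0 in skin to 14.3% ± 0.748 in thymocytes and 33.6% ± 4.12 in brain (mean ± SD, n = 2 each), without overlap between tissues, and the order gave p = 0.0222 in an exact two-sided permutation test, which is the smallest p this design allows. The tested order is the one the study reports genome-wide and was known beforehand, so this p is no separate support for it. With urea lists of equal size the means were 3.97%, 4.50% and 5.03% and the order was no longer past the threshold, with p = 0.2 in the same exact test.

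Occupancy of the cluster BURs was also read relative to each list's own genome-wide share. Over all clusters together the ratio was 1.14 and 1.16 in skin, 0.942 and 1.15 in thymocytes and 0.982 and 0.897 in brain. The exact permutation test of the order gave p = 0.178. The thymocyte replicates spanned most of the range between tissues, and a difference between tissues in this ratio was not detected at n = 2. Brain minus skin was -0.213, and -0.0173 with urea lists of equal size. The clusters differed: the ratio was between 0.974 and 1.34 on chromosome 16 and between 0.501 and 0.944 on chromosome 11 in the 6 lists. On chromosome 7, with 4 BURs, it was 0 in both skin lists, 3.43 and 3.87 in thymocytes and 1.35 and 1.46 in brain.

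A larger share of BURs was bound on chromosome 16 than on chromosome 11 in each of the 6 urea lists. In skin, 7 of 144 BURs of chromosome 16 were bound in each replicate (4.86%), and 1 of 41 of chromosome 11 (2.44%). In brain, 39.6% and 33.3% were bound on chromosome 16, against 24.4% and 19.5% on chromosome 11. In thymocytes the values were 14.6% in both lists for chromosome 16 and 7.32% and 12.2% for chromosome 11. Each cluster is 1 region of the genome and the difference was not tested. The share of 50-base words that occur once was 89.3% on chromosome 16 and 85.7% on chromosome 11, with 88.5% over the genome, and its part in this difference was not tested.

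Counted over members, chromosome 16 was again the higher. On chromosome 16, 7 of 19 members had a skin peak in each replicate, 16 and 14 a thymocyte peak and 19 and 18 a brain peak. On chromosome 11 these were 3 of 22 in each skin list, 9 and 12 in thymocytes and 18 in each brain list. The difference, chromosome 16 minus chromosome 11, was 23.2 percentage points in both skin lists, 43.3 and 19.1 in thymocytes and 18.2 and 12.9 in brain. It was positive in 6 of 6 lists, and the thymocyte replicates lay furthest apart. With flanks of 50 kb the mean difference was 54.8 points in skin, 10.6 in thymocytes and 0 in brain.

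By class, 4 of 12 glycine and tyrosine-rich members had a peak in each skin list, 9 and 8 in thymocytes and 12 and 11 in brain. For the 34 cysteine-rich members the counts were 6 in each skin list, 18 and 20 in thymocytes and 27 and 28 in brain. All glycine and tyrosine-rich members lie on chromosome 16, so class and cluster cannot be told apart from these counts. Members with a urea peak in all 6 lists numbered 9, and members with none in any list numbered 5: Krtap12-1, Krtap5-5, Krtap9-1, Krtap31-1 and Krtap29-1. Every member had a peak in at least 1 of the 11 lists. A peak in both brain lists and neither skin list was found for 27 members, and each of the 23 members with a peak in both thymocyte lists had one in both brain lists. The brain lists are the longest, and these combined counts were not set beside all genes.

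**Figure D3:**
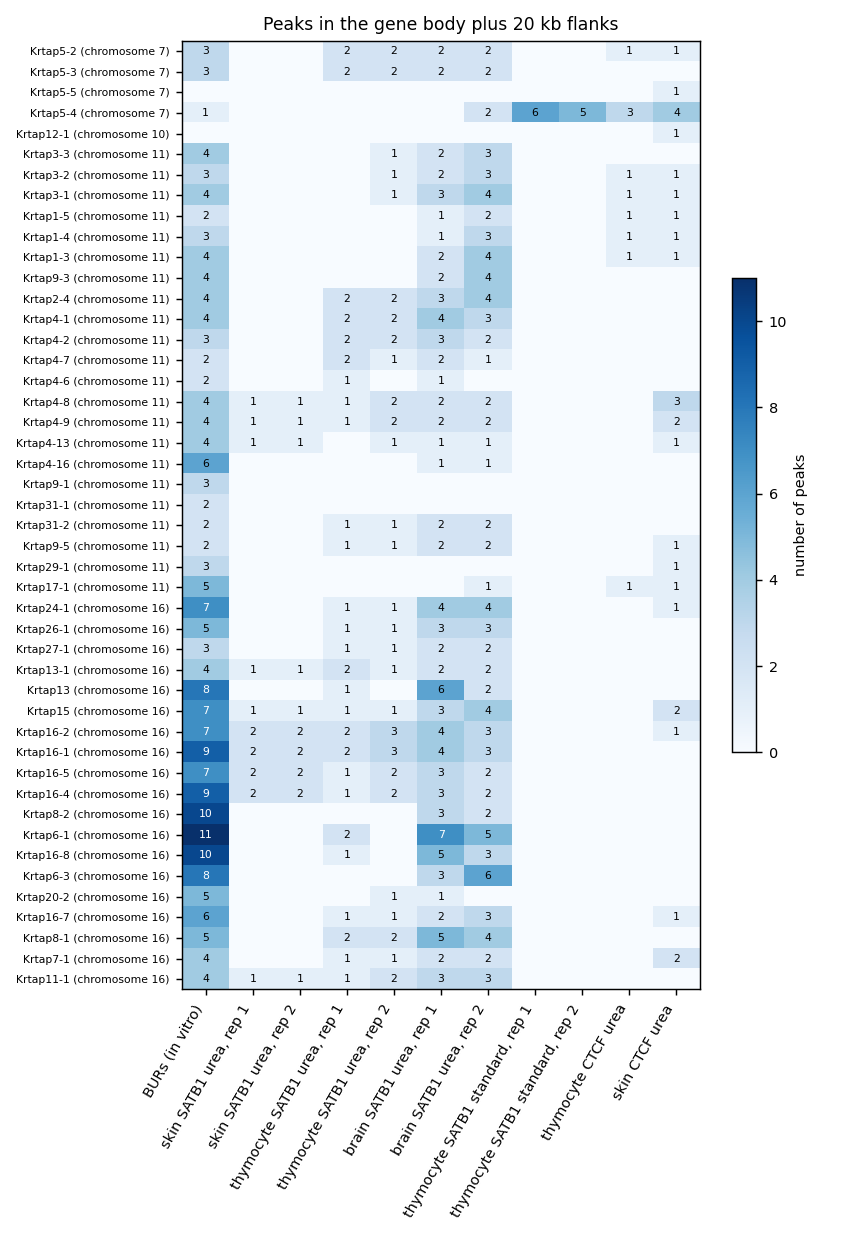
Number of peaks in the gene body plus 20 kb flanks for each of the 46 members (rows, by chromosome and position) in each of the 11 lists (columns). Empty cells are 0. The highest count is 11 BURs at Krtap6-1, and standard SATB1 peaks are found at Krtap5-4 only.

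The glycine and tyrosine-rich genes Krtap16-2 and Krtap16-1 led the chromosome 16 cluster. Krtap16-2 had 2 urea SATB1 peaks in each skin list, 2 and 3 in thymocytes, and 4 and 3 in brain, with 7 BURs. Its neighbour Krtap16-1, whose window overlaps, had the same 16 peaks in all, with 9 BURs. Krtap6-1, which encodes another glycine and tyrosine-rich protein, had 14 peaks, but these were 0 in both skin lists, 2 and 0 in thymocytes and 7 and 5 in brain, over 11 BURs, the highest BUR count of any member. Its thymocyte replicates disagreed on whether any peak was present.

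On chromosome 11, Krtap2-4 and Krtap4-1 had the most urea peaks, 11 each over the 6 lists, followed by Krtap4-2, Krtap4-8 and Krtap4-9 with 9 each. All 5 are cysteine-rich genes. Krtap2-4 and Krtap4-1 each had 0 skin peaks, 2 thymocyte peaks in either replicate, and 3 to 4 brain peaks. Krtap4-2 had 0 in skin, 2 and 2 in thymocytes, and 3 and 2 in brain. The nearest urea peak to Krtap4-1 lay 0.653 kb to 0.714 kb from the gene in the thymocyte and brain lists, and 168 kb away in both skin lists. Krtap4-8 and Krtap4-9 each had 1 peak in either skin list, 1 and 2 in thymocytes and 2 and 2 in brain. Their skin peak is shared with Krtap4-13 and was the only one of this cluster.

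On chromosome 7, Krtap5-2 and Krtap5-3 each had 2 urea peaks in both thymocyte and both brain lists and 0 in skin. Krtap5-4 had 0 in skin and thymocytes, and 0 and 2 in brain. The nearest skin peak was between 198 kb and 327 kb away from the members of this cluster.

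When overlapping urea peaks were joined, the clusters contained 102 SATB1 sites, of which 77 were on chromosome 16, 21 on chromosome 11 and 4 on chromosome 7. A BUR overlapped 72 of them, and 101 lay between genes. Sites called in both lists of a tissue numbered 9 in skin, 27 in thymocytes and 63 in brain. All 27 thymocyte sites were also called in both brain lists, and 0 of the 9 skin sites were without a brain peak. The study reports a like nesting of bound BURs over the genome: nearly all those of thymocytes recur in brain, and most of skin in thymocytes. The brain lists are also the longest. A further 30 sites were called in both brain lists and in no skin or thymocyte list, and 37 were called in 1 list only. Genome-wide shares of these site patterns were not counted, so the counts are not read as a trait of the clusters. Of the 31 thymocyte replicate 1 peaks in the clusters, 7 were present in all 6 urea lists, or 22.6%, with 16.1% for all peaks of that list.

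These 7 sites were all on chromosome 16, spread along the cluster. The strongest lay 0.678 kb from Krtap16-2 (chr16:88870334-88871106), with fold enrichments of 22.3 and 21.01 in skin, 27.4 and 28.7 in thymocytes, and 21.8 and 24.2 in brain. The BUR beneath it had 13.3-fold enrichment in vitro, and the bases printed above for it were 75.3% A+T. Thymocyte values were above those of the other tissues at this site.

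The second was 37.7 kb from Krtap16-7, in a stretch without members (chr16:89364748-89365524). Its fold enrichment was 25.8 and 25.4 in skin, 21.2 and 24.7 in thymocytes and 14.2 and 13.4 in brain. Here the skin values were highest and the brain values lowest, with no overlap between the tissues. The BUR that overlaps it reached 5.30-fold in vitro over 1046 bp, and its printed part, with the 80-base stretch without C, lies outside the SATB1 site.

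The third, 18.8 kb from the cysteine-rich Krtap13-1 (chr16:88709753-88710294), had 18.2 and 18.1 in skin, 20.8 and 20.9 in thymocytes and 17.6 and 18.3 in brain. The fourth, 29.7 kb from Krtap7-1 (chr16:89538303-89539142), had 13.3 and 17.2 in skin, 15.2 and 18.6 in thymocytes and 12.0 and 9.75 in brain. The fifth, 7.35 kb from Krtap15 (chr16:88837080-88837637), had 11.9 and 8.39 in skin, 13.4 and 13.1 in thymocytes and 13.4 and 12.0 in brain. Brain was thus lowest at the Krtap7-1 site, while at the Krtap15 site both skin values lay below both brain values, by little for the nearest pair.

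The other 2 sites in all lists were weaker, with mean fold enrichments over the 6 lists of 7.29 at 47.2 kb from Krtap6-1 and 6.997 at 10.3 kb from Krtap11-1. The former was the only 1 of the 7 without a BUR. With 2 lists per tissue, an exact test of 2 against 2 values cannot go below p = 0.333, so fold enrichments of single sites were not tested between tissues. Fold enrichment also depends on the depth and background of each library.

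**Figure D4:**
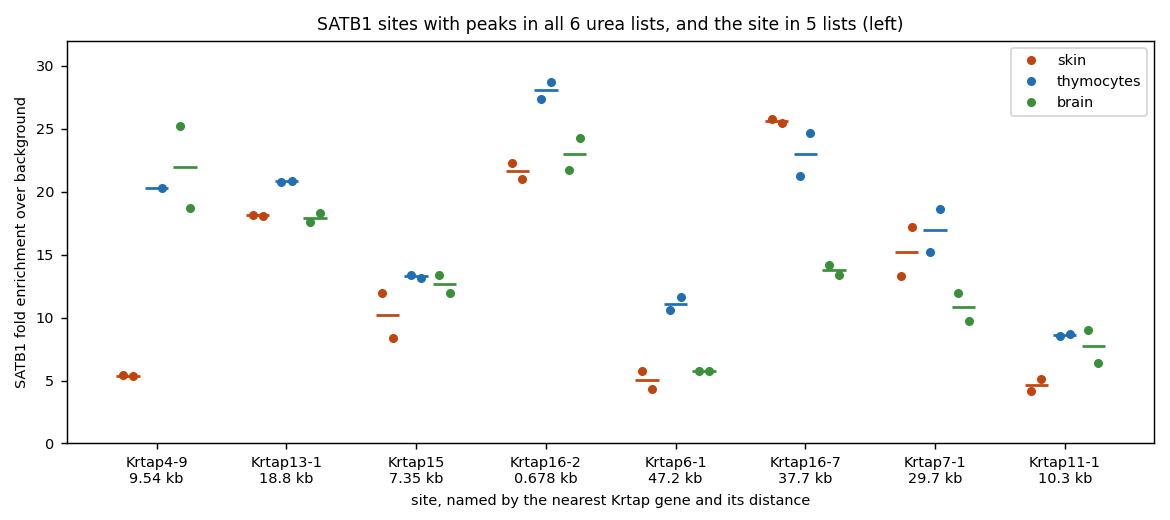
Fold enrichment of SATB1 over background at the 7 sites with a peak in all 6 urea lists, and at the site with a peak in 5 lists (left), by tissue. Points are replicates and short lines their mean, and the thymocytes at the leftmost site have 1 value. The sites at Krtap16-2 and Krtap16-7 are the strongest, and brain lies below both other tissues at Krtap16-7.

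The chromosome 11 cluster had no site in all 6 lists. Its only skin site (chr11:99657113-99657724), 9.54 kb from Krtap4-9, had 5.45 and 5.32-fold enrichment in skin, no peak in thymocyte replicate 1, 20.3 in replicate 2, and 25.2 and 18.7 in brain. It coincided with the strongest BUR of the cluster, at 20.1-fold in vitro. The 20 kb that hold it had the lowest share of unique 50-base words in the clusters, at 37.5%, and the part of this in the replicate difference was not tested. In the strongest BUR of chromosome 16, 11.6 kb from Krtap13 and 20.4-fold in vitro, a urea peak was called in brain replicate 1 only. The strongest BUR of chromosome 7, 5.16 kb from Krtap5-3 and 12.7-fold in vitro, was bound in both thymocyte and both brain lists, with 11.9 and 11.5-fold enrichment in thymocytes and 15.9 and 15.7 in brain.

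Among all 189 cluster BURs, 116 had no urea peak, 43 had one in 1 or 2 lists, 23 in 3 or 4 and 7 in 5 or 6. The median in vitro fold enrichment of these sets was 5.66, 6.76, 8.72 and 9.89, and for all BURs of the genome the same sets had 5.29, 6.09, 7.75 and 9.83. Across the 189 BURs, Spearman's rho between in vitro fold and the number of urea lists was 0.236, and 0.238 over all BURs; these points share libraries and neighbourhood, and no test was made. A strong BUR was not always bound: the BUR with 19.4-fold enrichment 6.89 kb from Krtap4-13 and that with 18.999-fold 7.15 kb from Krtap17-1 had no peak in any urea list. The former lies in the 20 kb with 37.5% unique 50-base words, the latter in 20 kb with 98.5%. The part of this in the missing peaks was not tested.

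**Figure D5:**
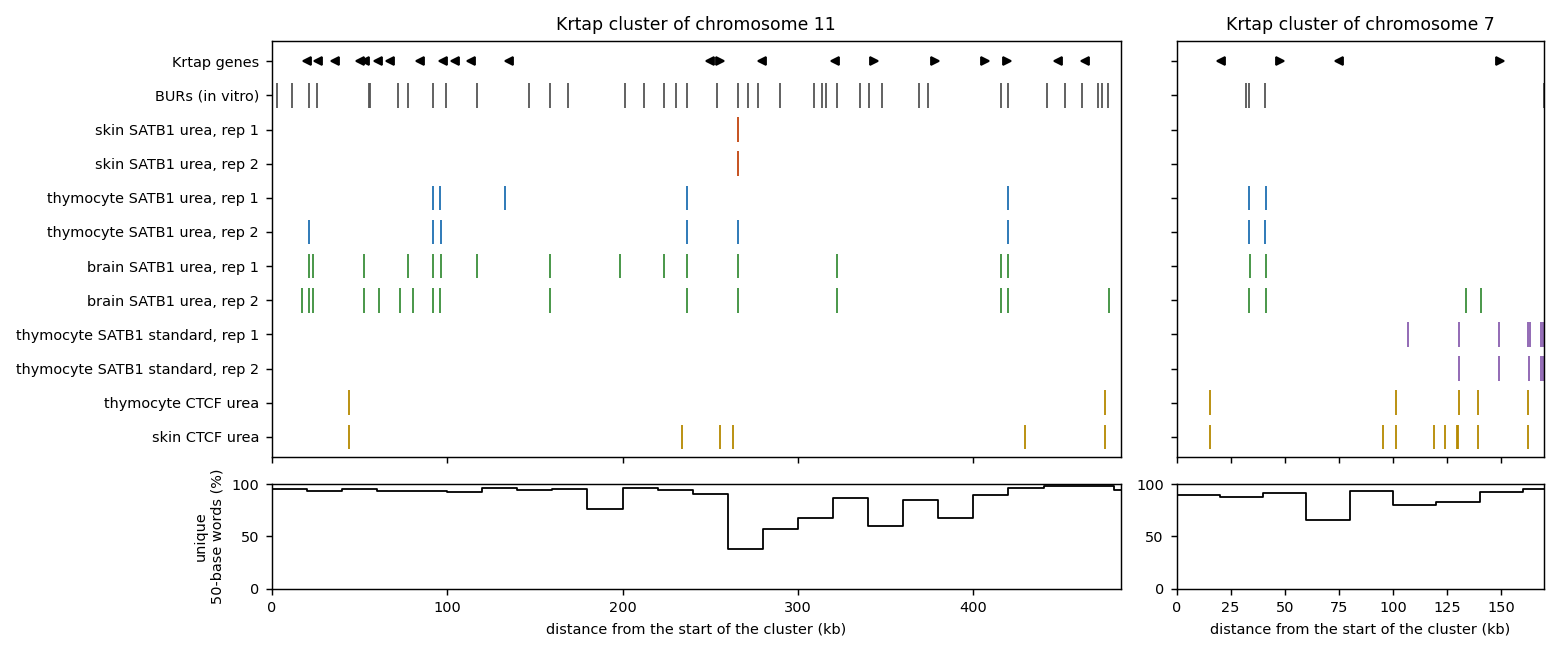
Krtap clusters of chromosome 11 (left) and chromosome 7 (right), drawn as in the map of the chromosome 16 cluster. Standard SATB1 summits are absent from the chromosome 11 cluster and lie around the rightmost member, Krtap5-4, on chromosome 7, and the dip in unique words on chromosome 11 covers the region of its only skin site.

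Standard SATB1 peaks were nearly absent outside the chromosome 7 cluster. In thymocytes, 1 of 46 members had a standard SATB1 peak in its body or flanks in each replicate, beside 75.1% and 65.4% of all protein-coding genes. In the window about the gene start it was again 1 member, beside 70.1% and 58.7%. That member was Krtap5-4, a cysteine-rich gene of chromosome 7, with 6 peaks in replicate 1 and 5 in replicate 2 and none in thymocyte urea lists.

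A standard peak overlapped the exon and promoter of Krtap5-4, at 11.0-fold in replicate 1 (chr7:149489413-149489750) and 5.26-fold in replicate 2. The highest was 12.1-fold and 7.77-fold, 18.5 kb from the gene, and overlapped a thymocyte CTCF peak of 10.0-fold. On chromosome 16 the only standard peak was 27.4 kb from Krtap13-1, at 12.3-fold and 6.45-fold, and no urea peak or BUR overlapped it. On chromosome 11 there was none, and the nearest to a member was 164 kb away. Keratin genes, by comparison, had a standard peak in 14 and 13 of 54 cases, and genes of the epidermal differentiation complex in 4 and 3 of 50. Olfactory receptor genes had one in 149 and 92 of 1113 cases. In the hair follicle list it was 14 and 12 of 20 genes, or 70% and 60%.

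As a share of the list, peaks in the Krtap clusters made up 0.0688% and 0.0823% of the thymocyte urea peaks (31 and 32 peaks) and 0.0166% and 0.0221% of the standard peaks (8 and 6 peaks). The difference was 0.0562 percentage points, and the exact permutation test of 2 against 2 gave p = 0.333, the smallest it can give. Peak density in the clusters relative to the genome was 1.04 and 1.25 in the urea lists and 0.252 and 0.337 in the standard lists. The 2 standard lists were made with different antibodies.

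None of the 102 urea SATB1 sites of the clusters overlapped a standard SATB1 peak or a CTCF peak of any of those 4 lists. The study reports such overlap to be rare genome-wide in thymocytes as well, so its absence here does not set the clusters apart. The genome-wide share of urea peaks with such an overlap was not counted here, and the values that follow are shares of BURs. Over the genome, standard SATB1 peaks overlapped 0.650% and 0.523% of all BURs, and CTCF peaks 0.221% in thymocytes and 0.524% in skin. Of the urea peaks in the clusters, 83.9% and 87.5% overlapped a BUR in thymocytes and 79.1% and 73.4% in brain, and in skin 8 of 9 in each list. Over all urea peaks these shares were 75.8% and 77.6% in thymocytes, 73.0% and 72.8% in brain and 78.4% and 79.4% in skin. Of the standard peaks, 1 of 8 in replicate 1 and 0 of 6 in replicate 2 did so, beside 3.78% and 5.20% over all standard peaks.

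CTCF peaks were found at a smaller share of members than of all genes, and at more members in skin than in thymocytes. In thymocytes 8 of 46 members had a CTCF peak in the body or flanks, beside 61.6% of all protein-coding genes, and in skin 20, beside 72.1%. In the window about the gene start the same counts stood beside 47.9% and 57.9%. All 8 members with a thymocyte CTCF peak had one in skin also, and 12 had one in skin only. Other gene groups also had more in skin than in thymocytes. In thymocytes and skin, the counts were 4 and 26 of 50 genes of the epidermal differentiation complex and 24 and 42 of 54 keratin genes. For olfactory receptor genes they were 74 and 150 of 1113, and in the hair follicle list 12 and 15 of 20. The lists held 20323 and 31509 peaks, there is 1 list per tissue, and the difference was not tested.

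On chromosome 16, none of the 19 members had a thymocyte CTCF peak and the whole cluster had 0, while skin had 7 peaks near 5 members. The highest of these were 10.3-fold at 9.29 kb from Krtap7-1 (chr16:89517856-89518416) and 9.24-fold at 16.9 kb from Krtap16-2 (chr16:88851666-88852230). Another lay in the intron of Krtap15 at 3.35-fold. On chromosome 11 the peaks common to both cells were 5.45 kb from Krtap1-5, at 9.77-fold in skin and 8.86-fold in thymocytes, and 10.7 kb from Krtap17-1, at 8.15-fold and 5.61-fold. The remaining 4 skin peaks of this cluster were between 3.21-fold and 4.42-fold, and 1 of them was in the exon of Krtap4-9 at 4.02-fold.

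On chromosome 7 there were 9 CTCF peaks in skin and 5 in thymocytes, and Krtap5-4 had 4 and 3 of them in its window. The highest skin peak, 9.18 kb from Krtap5-4 (chr7:149479679-149480227), had 8.83-fold enrichment in skin and 7.39-fold in thymocytes. Krtap12-1 on chromosome 10 had a skin CTCF peak of 4.42-fold 8.00 kb away, which was its only peak in any list. Per 100 kb, CTCF peaks of skin were 0.573 times as dense as over the genome on chromosome 16, 1.02 times on chromosome 11 and 4.34 times on chromosome 7.

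Agreement between replicates in the clusters differed by tissue. All 9 skin peaks of either list were overlapped by the other, as were 27 of 31 and 27 of 32 thymocyte peaks and 63 of 86 and 64 of 79 brain peaks. Genome-wide the shares were 81.0% and 83.6% in skin, 73.3% and 84.9% in thymocytes and 77.7% and 84.3% in brain, so that the brain lists of the clusters, at 73.3% and 81.0%, were below their genome-wide shares. Of the cluster length, 280 kb in 14 bins of 20 kb had under 75% unique 50-base words. In those bins there were 8.21 BURs per 100 kb and 0 to 1.43 urea SATB1 peaks per 100 kb, depending on the list. Elsewhere in the clusters the values were 11.7 and 0.565 to 5.80.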

How the data were processed

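The deposited files were 11 peak lists, and 10 of these were of ChIP-seq and 1 of SATB1 binding to purified DNA. Per the labels and the study's methods, the authors kept 50-base single-end reads with a unique match to mm9 (Bowtie2 2.3.1; mm9 is NCBIM37, and no summit on a main chromosome lay beyond its end) and called peaks for each sample with MACS2 2.2.7 at q 0.01. The deposited lists give each peak a fold enrichment over background (a ratio), −log10 of p and of q, and a score, which is a rescaled −log10 q and was not used. The lists hold no read counts, so no interval for counting error could be given; the study describes the urea libraries as similar in aligned reads. FastQC is also named in the submitters' notes. Each list was read as 1 sample.

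Krtap genes were taken from GENCODE vM1 and chained into clusters at gaps of up to 500 kb, with 20 kb at either end. Peaks were counted when they overlapped a window by at least 1 bp. The order of skin, thymocytes and brain was tested with the exact two-sided Jonckheere-Terpstra permutation test over 90 arrangements, and 2 against 2 lists with the exact permutation test over 6. Percentages over members are descriptions. The share of 50-base words that occur once in the genome was counted on both strands, with the genome read at every 1000th word. Counting and tests were tested on simulated data. Sequences were read from mm9, and RefSeq (GRCm38.p6) supplied current gene names only. Members named singly were the 3 per cluster with the most urea peaks, those with a peak in the body or promoter, and those with no urea peak, a standard SATB1 peak or a CTCF peak; sites named were those in all urea lists, the strongest BUR of each cluster, the few skin sites, and the strongest CTCF peaks. The members and lists were chosen with earlier results of these data known, and the KAP classes, 2 named unbound BURs and the sites on chromosome 7 after their values were seen. Alternatives changed the q threshold, the overlap, the cluster limits, the flanks, the list length and the lists included. Python 3.11.15, numpy 2.4.6, pandas 2.3.3, scipy 1.17.1, numba 0.67.0 and matplotlib 3.10.9 were used. Other samples of the series were not analysed here.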

Additional observations from a re-analysis of the deposited data

How the results depend on the processing

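Peak lists limit these results: a peak absent from a list may be a site below the threshold, the lists hold no read counts, and reads that match more than 1 place were discarded. The order of the tissues in the percent of cluster BURs bound (brain minus skin 29.4 percentage points) stayed past the threshold with −log10 q of at least 5, an overlap of 50% of the shorter, gaps of 100 kb, cluster ends without flanks and removal of regions shared by all 11 lists, none of which lay in the clusters. With urea lists of equal size the difference was 1.06 points and p = 0.2 in the exact permutation test. With the replicate block the difference was unchanged at 29.4 points, with p = 0.0556 in the exact permutation test over 36 arrangements, the smallest p that the block allows. Leaving out 1 list at a time gave 26.5 to 32.3 points. Without any 1 skin or thymocyte list the exact permutation p was 0.0667, the smallest possible there. The labels tie no replicate number to an animal or day, and replicate differences in log2 fold at the 7272 sites in all 6 urea lists correlated between tissues with r = 0.132 for skin and thymocytes, -0.0613 for skin and brain and -0.361 for thymocytes and brain, so the numbers were not treated as paired. For the ratio to the genome the replicate block gave -0.213 and p = 0.222 in the exact permutation test.

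The ratio to the genome, the difference between the chromosome 16 and chromosome 11 members and the urea minus standard difference kept the direction of their overall value in all alternatives run, but not their size. Brain minus skin in the ratio (-0.213) was -0.391 with gaps of 100 kb and -0.0173 with urea lists of equal size, where the exact permutation p was 0.844 and the means were 1.09 in skin, 1.04 in thymocytes and 1.08 in brain. The member difference with flanks of 50 kb was 21.8 points over the 6 lists, but 0 in brain. The urea minus standard difference (0.0562 points) was 0.0370 with gaps of 100 kb. Leaving out 1 list at a time gave -0.255 to -0.17 for the ratio, 19.3 to 25.4 points for the members and 0.0495 to 0.0629 points for the methods. Leaving out the 5 members with windows under 75% unique, chosen after seeing the data, gave 25 points, beside 23.3.

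The number of members with a peak depended on the flank. With a flank of 0 kb it was 3 for BURs, 0 in both skin lists, 0 in both thymocyte urea lists, 0 and 1 in brain, 0 for thymocyte CTCF and 2 for skin CTCF. With 10 kb it was 6 and 6 in skin, 15 and 17 in thymocytes, 5 for thymocyte CTCF and 11 for skin CTCF. With 50 kb it was 16 and 16 in skin, 6 and 4 for standard SATB1, 14 for thymocyte CTCF and 31 for skin CTCF. In lists of equal size, chosen after seeing the data, the members with a peak numbered 13 and 10 in thymocytes and 9 and 11 in brain. A threshold of −log10 q of at least 5 moved no count by over 1.5 times.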
